A study of Mus musculus with 10 samples.

Results

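The genes described here are 6 genes for proteins of the actin core of microvilli: Avil, Espn, Vil1, Pls1, Eps8 and Ezr. They were taken by name from a table of 12160 genes, and all 6 were listed. The table holds RNA sequencing of wild-type mice with chronic pancreatitis, caused by 4 cycles of caerulein (a cholecystokinin analog that overstimulates acinar cells) at 250 μg/kg, with 0 to 2 days of recovery. Both groups came from caerulein-treated pancreas and both were Cd45-neg and EpCAM+. Tuft cells (5 libraries) were Siglec f+ and non-tuft epithelial cells (5 libraries) were Siglec f-neg, with 100 sorted cells in each library. The extraction protocol names 5 CD1 male mice, the strain field of the labels reads Mixed, and no source used here gives an age. No untreated pancreas is in the table, so every comparison is between cell populations of injured pancreas.

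Microvilli are finger-like protrusions of the apical membrane held up by a bundle of parallel actin filaments. Villin (Vil1), espin (Espn) and plastin 1 (Pls1) cross-link the filaments, advillin (Avil) is a villin relative, Eps8 bundles filaments and caps their growing ends at the tip, and ezrin (Ezr) ties the bundle to the membrane along its side. The tuft cell takes its name from the bundle of stiff apical microvilli with which it samples the lumen. The comparison asked which parts of this machinery differed in mRNA level between tuft cells and the rest of the sorted epithelium.

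Of the 6 genes, 3 were called higher in tuft cells, 0 were lower and 3 did not pass the test. The advillin, espin and villin genes rose, by 5.66, 4.67 and 3.14 on the log2 scale, and none of these 3 overlapped between the groups. Pls1, Eps8 and Ezr differed by 0.47, -0.77 and -0.07, within the spread between libraries. A gene was called at an adjusted p under 0.05 (limma's moderated test, Benjamini-Hochberg over all 12160 genes) and a fold change over 4. By this rule 4.32% of all genes were called higher and 3.99% lower. The adjusted p alone was passed by the same 3 members, against 6.19% of all genes for higher and 5.55% for lower values. The 3 members without overlap compare with 6.31% of all genes whose tuft values all lay above the non-tuft values, and 5.12% for the reverse. The median difference was 1.81 for the 6 genes and 0.02 for all genes. The 6 genes were chosen with earlier results of these data known, so these shares of all genes are given for scale only.

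Each value is log2(RPKM + 1), where RPKM scales reads to transcript length and library size. The values were quantile normalized, which aligns the distributions of the libraries with each other. Levels of different genes are set side by side per length, which rests on the RPKM scaling alone. A difference of 1 is a doubling on this scale, which understates the change of genes with low values. The lowest value of a library is called the floor here and stands for genes without signal. It was 0.17 for non-tuft library 2 and 0 for all others. Since the values are normalized and no counts stand beside them, depth is unknown, and a gene at the floor may still be expressed. Both populations are described as sorted from 5 mice, and each tuft library came from a different mouse. The sources used here do not say if equal library numbers stand for 1 mouse. The tests treat the 2 groups as unpaired, and a fit with the library number as a block is given at the end. In sorted pools of this kind, fewer cells that express a gene and less RNA per cell cannot be told apart.

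Dclk1, a kinase gene used as a tuft cell marker, stood at 10.7 to 12.7 in the tuft libraries and at 0 to 8.46 in the non-tuft libraries, and Pou2f3, the transcription factor gene required for the tuft lineage, at 5.45 to 6.14 and 0 to 3.13. All 13 listed tuft markers were called higher, against 4.32% of all genes. The 13 include Siglecf, the gene of the antigen on which the groups were sorted, so its call followed from the sort. The summed level of the 13, as log2 of the summed RPKM + 1, was 12.0 to 13.6 in the tuft libraries. In non-tuft libraries 1 to 5 it was 7.61, 9.03, 3.03, 0.42 and 8.97, so 3 of the non-tuft libraries held tuft transcripts well above the floor. Acinar markers summed to 9.50 to 16.1 in the tuft libraries, lowest in tuft library 5, and to 16.1 to 16.6 in the non-tuft libraries, and islet markers to 0.69 to 6.66 against 1.89 to 14.4. Fibroblast and endothelial markers were at 0 in tuft libraries 1 to 4 but summed to 7.99 in tuft library 5. In non-tuft libraries 1 to 5 they summed to 4.59, 1.00, 0.53, 2.86 and 9.56. The part of these other cells in the results was not tested. Values of the members that rose are given below without the libraries numbered 5, without non-tuft library 1, which had the highest islet sum, and without tuft library 4, which had the highest acinar sum of the tuft libraries.

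The promoters of the 3 genes that rose are shown from 250 bases before to 50 bases after the annotated start (RefSeq, build GRCm38.p6, 300 bases, sense strand of the gene, 5′ to 3′). Capitals mark matches to ATGCAAA, or to its reverse complement TTTGCAT, the core of the octamer bound by POU-domain factors. This motif was chosen after the Avil sequence had been seen. The promoters lie at chr10:127000459-127000758 (Avil, plus strand), chr4:152152340-152152639 (Espn, minus strand, the first of 3 annotated starts) and chr1:74409134-74409433 (Vil1, plus strand).
Avil: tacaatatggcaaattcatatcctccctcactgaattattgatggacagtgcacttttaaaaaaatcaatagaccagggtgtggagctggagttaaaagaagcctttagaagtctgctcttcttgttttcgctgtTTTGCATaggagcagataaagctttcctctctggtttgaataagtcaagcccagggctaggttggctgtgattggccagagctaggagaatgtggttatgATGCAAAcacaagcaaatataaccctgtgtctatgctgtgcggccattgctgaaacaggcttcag
Espn: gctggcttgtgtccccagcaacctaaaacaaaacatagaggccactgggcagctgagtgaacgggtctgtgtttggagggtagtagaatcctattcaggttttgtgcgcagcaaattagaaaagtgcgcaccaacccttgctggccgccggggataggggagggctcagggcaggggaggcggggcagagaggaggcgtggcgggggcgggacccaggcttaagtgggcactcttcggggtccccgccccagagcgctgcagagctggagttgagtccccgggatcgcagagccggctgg
Vil1: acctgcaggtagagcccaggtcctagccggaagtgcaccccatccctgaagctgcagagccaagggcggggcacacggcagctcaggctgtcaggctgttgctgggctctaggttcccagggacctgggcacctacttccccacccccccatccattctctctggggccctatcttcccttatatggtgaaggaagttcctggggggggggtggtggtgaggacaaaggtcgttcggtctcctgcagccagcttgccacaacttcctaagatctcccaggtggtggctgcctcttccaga
The Avil promoter held 2 matches, 1 beginning 115 bases and 1 beginning 15 bases before the start, and neither extended to the full octamer ATGCAAAT. Neither the other promoters shown, nor the other Espn starts, nor the Pls1 and Ezr promoters held a match. Of 32851 promoters of this length, 4.63% held at least 1 match on either strand and 0.292% held 2 or more. Eps8 was not in the promoter table. A match describes these letters only, since no binding was measured.

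Avil encodes advillin, an actin-bundling member of the villin family that is otherwise known from sensory neurons. The gene lies on the plus strand of chromosome 10 from 126437765 to 126458050 (NCBIM37, the mm9 build used for mapping), with 20 exons in its longest transcript. Its level in tuft libraries 1 to 5 was 7.52, 7.89, 8.74, 7.77 and 7.99, and in non-tuft libraries 1 to 5 it was 2.61, 4.43, 0, 0 and 4.57. The lowest tuft library was well above the highest non-tuft library, and the non-tuft libraries fell into 2 at the floor and 3 at intermediate levels. The means were 7.98 ± 0.46 and 2.32 ± 2.26 (SD, n = 5 libraries each), a difference of 5.66 (standard error 0.87, 95% interval 3.79 to 7.53, adjusted p = 0.00101, limma). Among all genes it was placed 25 by fold change. Its exact two-sided permutation p was 0.00794, the smallest that 5 against 5 libraries allow. In every tuft library Avil ranked above at least 97.4% of all genes. The 3′ part of the gene overlaps Tsfm on the opposite strand. Since 120 of 3453 stretches of 50 bases (3.48%) lie in exons of both genes and strand was not used as far as is stated, reads there could be counted for either. Tsfm itself differed by -0.31 (adjusted p = 0.779, limma).

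Espn encodes espin, a small bundling protein known from the parallel actin bundles of hair cell stereocilia and of brush border microvilli. It lies on the minus strand of chromosome 4 from 151494440 to 151526480, with 20 annotated transcripts. In tuft libraries 1 to 5 it stood at 5.56, 5.73, 6.42, 6.76 and 6.72, and in non-tuft libraries 1 to 5 at 1.37, 2.63, 0.33, 1.44 and 2.06. No non-tuft library came near the tuft range, and none was at the floor. The means of 6.24 ± 0.56 and 1.56 ± 0.86 (SD, n = 5 libraries each) differed by 4.67 (standard error 0.48, 95% interval 3.64 to 5.71, adjusted p = 5.45e-05, limma). The table gives 1 value for the gene, so the long and short espin isoforms, which come from different starts, were not separated.

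Vil1 encodes villin, which bundles, caps and severs filaments and is the classical marker of the intestinal brush border. It lies on the plus strand of chromosome 1 from 74455950 to 74482133. It stood at 7.31, 7.63, 7.15, 7.45 and 7.30 in tuft libraries 1 to 5 and at 4.61, 4.11, 3.71, 4.67 and 4.04 in non-tuft libraries 1 to 5. Unlike Avil, Vil1 was never at the floor, and its values were tight within each group. The means of 7.37 ± 0.18 and 4.23 ± 0.41 (SD, n = 5 libraries each) differed by 3.14 (standard error 0.36, 95% interval 2.37 to 3.91, adjusted p = 0.000108, limma). Without the 2 libraries numbered 5, the differences were 6.22 for Avil, 4.68 for Espn and 3.11 for Vil1, and all 3 passed the test. Without non-tuft library 1 they were 5.73, 4.62 and 3.24, and without tuft library 4 they were 5.71, 4.54 and 3.12, and all again passed.

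Pls1 encodes plastin 1, the plastin of intestinal and other epithelial microvilli. It lies on the minus strand of chromosome 9 from 95653061 to 95745730. Its level was 5.33, 4.93, 4.83, 4.75 and 4.11 in tuft libraries 1 to 5 and 3.32, 2.11, 5.65, 5.39 and 5.14 in non-tuft libraries 1 to 5. Non-tuft libraries 3, 4 and 5 lay above at least 4 of the 5 tuft libraries and libraries 1 and 2 below all of them, so the groups overlapped. The difference was 0.47 (95% interval -0.92 to 1.86, adjusted p = 0.697, limma). It depended on the non-tuft libraries used, and was -0.08 without non-tuft library 2 and -0.73 against non-tuft libraries 3 and 4 alone.

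Eps8 lies on the minus strand of chromosome 6 from 137425766 to 137603397, and was the gene of the 6 with the lowest level in tuft cells. It stood at 2.88, 1.45, 1.62, 2.76 and 0.30 in tuft libraries 1 to 5 and at 2.58, 2.21, 1.74, 3.29 and 3.05 in non-tuft libraries 1 to 5. The ranges overlapped, with tuft library 5 the lowest of all 10. The means of 1.80 ± 1.06 and 2.57 ± 0.63 (SD, n = 5 libraries each) differed by -0.77 (95% interval -1.93 to 0.39, adjusted p = 0.414, limma). When values were centred on ribosomal protein genes the difference was 0.05, where the median of all genes was 0.84.

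Ezr lies on the minus strand of chromosome 17 from 6942390 to 6987133. Its tuft values of 4.86, 5.04, 4.88, 4.84 and 4.74 were the tightest of any of the 6 genes, and its non-tuft values were 5.20, 4.01, 5.08, 4.84 and 5.58. The tuft range lay inside the non-tuft range. The difference was -0.07 (95% interval -0.90 to 0.75, adjusted p = 0.934, limma), and 0.75 (adjusted p = 0.250, limma) when centred on ribosomal protein genes. That centring moved the median of all genes from 0.02 to 0.84, so Ezr stayed below that median.

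**Figure D1:**
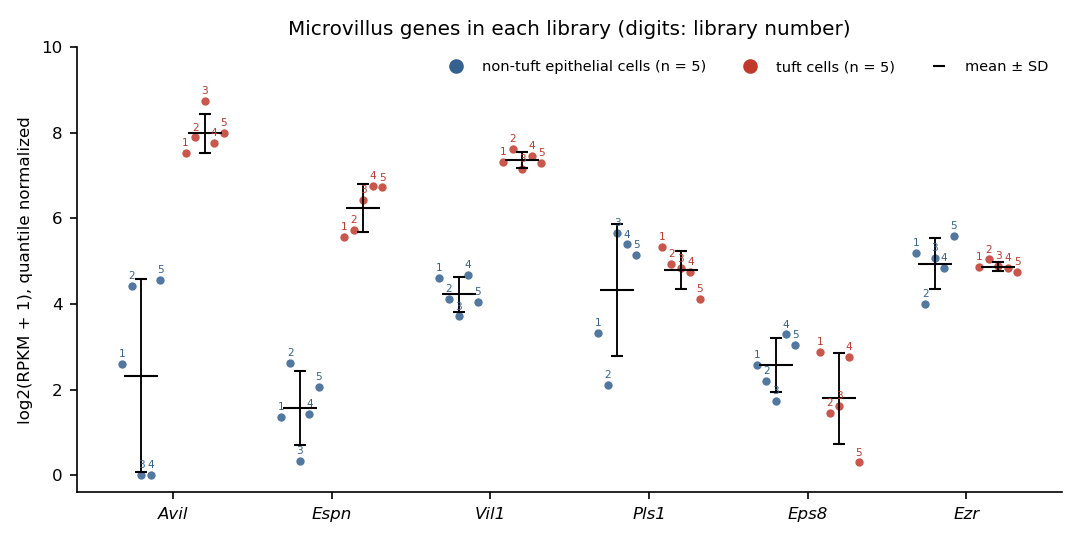
Level of each of the 6 genes as quantile normalized log2(RPKM + 1) in the 5 tuft and 5 non-tuft libraries, with 1 point per library, its number beside it, and the mean ± SD of each group as bars. Avil, Espn and Vil1 are higher in all 5 tuft libraries than in any non-tuft library, while Pls1, Eps8 and Ezr overlap.

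Within tuft cells the mean levels fell in the order Avil, Vil1, Espn, Ezr, Pls1 and Eps8. Avil lay above Vil1 in all 5 tuft libraries, by a mean of 0.61 ± 0.58 (SD), although their ranges overlapped. Vil1 lay above Espn by 1.13 ± 0.64 and Espn above Ezr by 1.37 ± 0.63, both in 5 of 5 libraries and without overlap. Ezr and Pls1 did not differ beyond their spread, with a gap of 0.08 ± 0.39. Eps8 lay 2.99 ± 0.75 below Pls1.

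In non-tuft epithelial cells the order was Ezr, Pls1, Vil1, Eps8, Avil and Espn. Here the only gap between neighbors without overlap was that of Vil1 over Eps8, 1.65 ± 0.45 (SD, 5 of 5 libraries). Avil, first in tuft cells, was next to last in non-tuft cells, and was above Vil1 in only 2 of the 5 non-tuft libraries.

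Whether pairs of genes changed by different amounts was tested within libraries (exact two-sided permutation test, adjusted over the 15 pairs). Of the 15 pairs, 10 passed. These tests used the same libraries as the calls above, for genes chosen with earlier results known, and are no separate support for those calls. Avil, Espn and Vil1 each rose by more than each of Pls1, Eps8 and Ezr, by 2.67 for Vil1 over Pls1 up to 6.43 for Avil over Eps8. Espn rose by 1.53 more than Vil1 (exact p = 0.0317, adjusted p = 0.0476). The size of this gap depended on the constant of 1 in log2(RPKM + 1). With 10 in its place Espn rose by 2.79 and Vil1 by 2.64, and with 0.1 by 5.38 and 3.21. The larger rise of Avil over Vil1, 2.52, did not pass (exact p = 0.0794, adjusted p = 0.108), with Avil spread widely over the non-tuft libraries. With each library left out in turn, 8 to 11 pairs passed.

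The members were then set beside their relatives. The villin and gelsolin family has 8 listed genes, of which only Avil and Vil1 were called. Their combined share of the family's summed RPKM was 83.7 to 88.2% in the tuft libraries (median 87.4%) and 14.2 to 49.2% in the non-tuft libraries (median 23.6%). Avil alone took 45.2 to 66.3% in tuft libraries and 0 to 24.8% in non-tuft libraries, where Capg, a gene for a filament capping protein, took 7.22 to 54.7%. The family sum rose by 2.38 (8.94 ± 0.25 against 6.56 ± 0.55, SD, n = 5 libraries each, exact permutation p = 0.00794, adjusted over 4 families 0.0159). Most of the sum in tuft libraries was Avil and Vil1, so this test is not separate from their calls.

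Among the other villin relatives, Flii, a gene for a nuclear and cytoskeletal gelsolin-like protein, rose by 1.42 (adjusted p = 0.0359, limma), under the fold threshold. It lost the adjusted p threshold in 12 of 19 alternatives. Svil, the supervillin gene, differed by 1.27 (adjusted p = 0.0677, limma) and the villin-like gene Vill by -2.12 (adjusted p = 0.0520, limma). Vill had 0 in tuft libraries 4 and 5 and 2.18 to 4.94 in the non-tuft libraries. Gsn and Capg, at 0.25 and 0.11, had adjusted p of 0.878 and 0.937 (limma). Scin, the scinderin gene, was at 0 in all tuft libraries and above the floor only in non-tuft library 1.

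In the plastin family Lcp1 was called and Pls1 was not. Lcp1, the L-plastin gene best known from leukocytes, stood at 5.86, 6.10, 7.41, 4.92 and 7.36 in tuft libraries 1 to 5 and at 4.18, 4.55, 4.92, 0.89 and 4.20 in non-tuft libraries 1 to 5. It rose by 2.58 (standard error 0.75, adjusted p = 0.0403, limma), and lost the adjusted p threshold in 11 of 19 alternatives, among them leaving out non-tuft library 4 (1.87, adjusted p = 0.0510, limma) or both libraries numbered 5 (2.44, adjusted p = 0.150, limma). Lcp1 took 39.0 to 88.0% of the plastin sum in tuft libraries and 1.65 to 60.9% in non-tuft libraries, whereas Pls1 took 8.80 to 40.7% and 9.01 to 78.8%. Pls3, the plastin gene of most solid tissues, differed by -1.78 (adjusted p = 0.176, limma).

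Leukocyte markers moved in part with Lcp1. Of 14 names, among them Adgre1 and Emr1 for the same gene, 6 were listed. Of these, 1, Ptprc, the gene of the Cd45 antigen that the sort selected against, was called higher (2.72, adjusted p = 0.00292, limma). Their summed level was 4.08 to 5.45 in tuft and 0.81 to 5.45 in non-tuft libraries, and none of 8 eosinophil genes was listed. The part of leukocytes in the Lcp1 values was not tested. The plastin sum rose by 1.03 (6.96 ± 0.60 against 5.92 ± 0.50, SD, n = 5 libraries each, exact permutation p = 0.0238, adjusted 0.0317). This call was lost on leaving out any of 7 of the 10 libraries, which were non-tuft 1, 2 or 4 or tuft 1, 2, 3 or 5 (0.864 to 1.12, adjusted p 0.0529 to 0.0741, exact permutation test).

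The Eps8 family rose although Eps8 did not. Eps8l3, an Eps8-like gene, stood at 5.79, 6.04, 7.06, 6.28 and 6.72 in tuft libraries 1 to 5 and at 1.90, 1.47, 0.49, 4.19 and 0.28 in non-tuft libraries 1 to 5. The groups did not overlap, with non-tuft library 4 the highest of its group. Eps8l3 rose by 4.71 (standard error 0.66, adjusted p = 0.000527, limma). Eps8l2, a relative known from hair cells, rose by 1.29 (adjusted p = 0.0495, limma), under the fold threshold, and lost the adjusted p threshold in 14 of 19 alternatives.

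The Eps8 gene itself accounted for 0.164 to 6.72% of the family's summed RPKM in tuft libraries (median 1.56%) and for 13.9 to 33.5% in non-tuft libraries (median 24.9%). Eps8l3 took 57.2 to 74.3% in tuft libraries and 0.972 to 31.2% in non-tuft libraries. The sum rose by 2.41 (exact permutation p = 0.00794, adjusted 0.0159). In tuft cells the level of Eps8l3, 6.38 ± 0.51 (SD, n = 5 libraries), was near that of Espn and far above that of Eps8.

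The ezrin, radixin and moesin family showed no member past the test. Ezr took 38.7 to 53.2% of its sum in tuft libraries and 32.5 to 56.3% in non-tuft libraries, and the radixin gene Rdx 33.4 to 52.6% and 30.8 to 65.3%. Rdx, Msn (moesin) and Nf2 (merlin) differed by -0.31, -0.18 and 0.44, and the family sum by -0.20 (exact permutation p = 0.429). Rdx and Msn turned to 0.51 and 0.65 when centred on ribosomal protein genes, where the median of all genes was 0.84. Of the other families of bundlers, none of the 3 fascin genes and not the espin-like gene Espnl was listed.

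**Figure D2:**
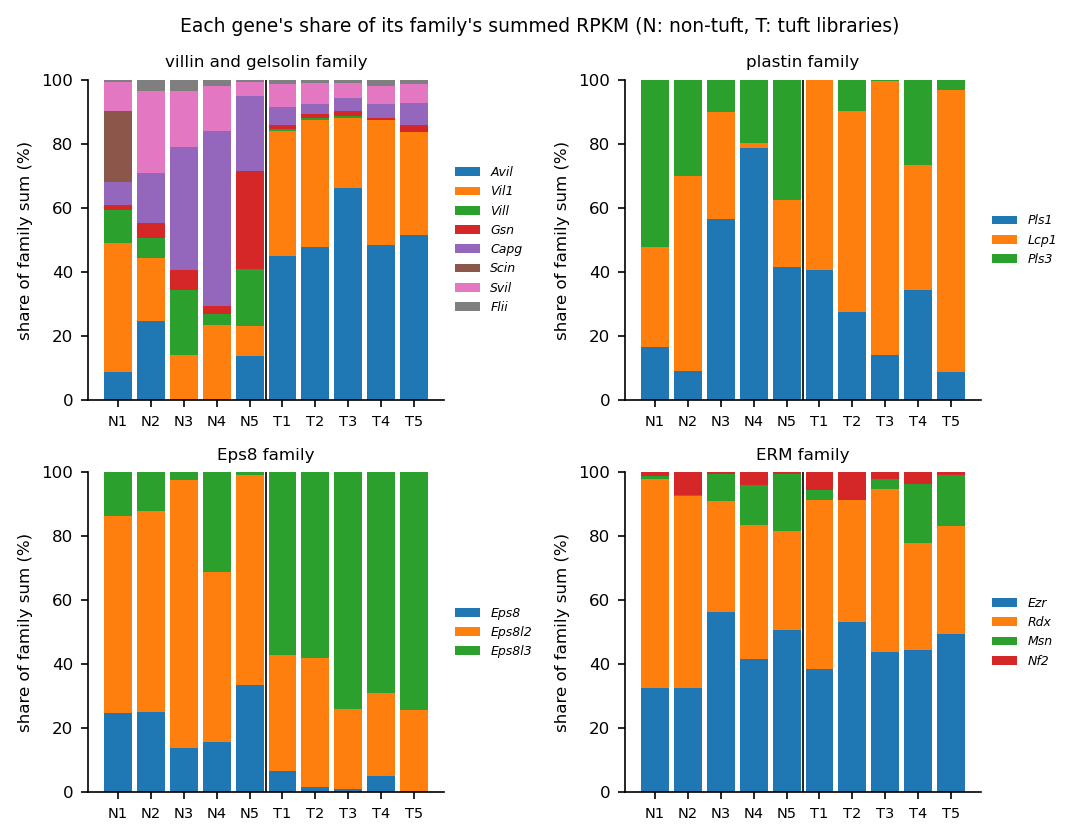
Share of each gene in the summed RPKM of its family in the 5 non-tuft (N1 to N5) and 5 tuft libraries (T1 to T5), as stacked bars that add up to 100%. Avil and Vil1 fill 83.7 to 88.2% of the villin and gelsolin bars in tuft libraries, and Eps8l3 takes 57.2 to 74.3% of the Eps8 bars where Eps8 takes at most 6.72%.

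Together with these relatives, 90 listed genes of the wider microvillus and actin machinery, other than the 6 members, were counted. Of these, 11 (12.2%, against 4.32% of all genes) were called higher and 0 lower, and their median difference was 0.50. Without the 2 libraries numbered 5, in which fibroblast and endothelial markers were highest, 9 were called, beside 442 of all 12160 genes. Against non-tuft libraries 3 and 4 alone 10 were called, beside 445 of all genes. All lists were chosen with earlier results of these data known, so the share of all genes is given for scale only. The same holds for the counts of the single lists below.

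The calls were most frequent in the intermicrovillar adhesion complex, the protocadherin links between the tips of neighboring microvilli and their cytoplasmic anchors, where 5 of 5 listed genes were called with a median of 4.76. Cdhr2 and Cdhr5, the paired protocadherin genes, stood at 6.09 to 7.23 and 5.65 to 7.21 in tuft libraries and at 0 to 4.35 and 0.47 to 4.23 in non-tuft libraries. They rose by 4.76 and 4.23 (adjusted p = 0.00141 and 0.000805, limma). Anks4b, the gene of an ankyrin scaffold, stood at 4.67 to 6.51 in tuft libraries and was at the floor in 4 of 5 non-tuft libraries (5.34, adjusted p = 8.75e-06, limma).

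Calml4, the gene of a calmodulin-like light chain, was the highest of the complex, at 9.40 to 10.2 in tuft and 3.26 to 6.45 in non-tuft libraries (5.15, adjusted p = 6.04e-05, limma). Myo7b, the motor gene of the complex, was low in both groups, at 2.12 to 2.87 and 0 to 2.02, and rose by 2.01 (adjusted p = 0.0117, limma). It did not pass without the 2 libraries numbered 5 (1.85, adjusted p = 0.0659, limma) or against non-tuft libraries 3 and 4 alone (1.43, adjusted p = 0.187, limma). The other 4 genes passed in both. With a constant of 10 Myo7b rose by 0.46, under the fold threshold. The scaffold gene Ush1c was not listed.

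Of 10 listed genes for microvillus myosins and tip proteins, 1 was called, with a median of 0.81. Myo1a, the motor gene that tethers the brush border bundle sideways to the membrane, stood at 4.40 to 5.18 in tuft libraries. In non-tuft libraries it stood at 0 to 2.06, with 3 of them at the floor. Myo1a rose by 4.12 (adjusted p = 9.55e-05, limma), but by 1.70, under the fold threshold, with a constant of 10.

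Of 12 genes of ezrin scaffolds and kinases, 1 was called, the kinase gene Tnik, with a median of 0.21. Tnik rose by 2.31 (adjusted p = 0.0367, limma) with overlap between the groups, and lost the adjusted p threshold in 12 of 19 alternatives. Of 12 terminal web genes, which build the mesh at the base of the microvilli, 1 was called, with a median of 0.27. This was Lima1, the gene of a filament cross-linker also known as EPLIN (7.34 to 8.02 in tuft and 5.13 to 5.96 in non-tuft libraries, difference 2.08, adjusted p = 0.00206, limma). It kept the adjusted p in all alternatives but fell under the fold threshold with a constant of 10 (1.89), without non-tuft library 3 (1.95) and without tuft library 1 (1.999). Of 4 listed stereocilium genes 1 was called, Clic5, which encodes an ezrin and radixin partner at the base of stereocilia (3.57, adjusted p = 0.00105, limma). With a constant of 10 Clic5 rose by 1.59, under the fold threshold. The stereocilium list holds 18 names, and 14 of them were not in the table. Among those 14, Myo15 and Myo15a name the same gene.

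Genes for actin itself and for filament turnover gave 0 calls of 34, with a median of 0.55. The calls numbered 7 when centred on ribosomal protein genes, and 0 or 1 with each library left out. In the main fit 5 genes passed the adjusted p alone, all of them higher. Actb, the beta-actin gene, stood at 9.85 to 11.0 in tuft and 7.93 to 9.27 in non-tuft libraries (1.65, adjusted p = 0.0224, limma). Actb lost the adjusted p threshold without tuft library 3 (0.0580) or 5 (0.0619) and against non-tuft libraries 3 and 4 alone (0.107, limma). Pfn1 (profilin 1), Arpc5 (a subunit of the filament-branching complex), Capza1 (a capping protein subunit) and Actr2 rose by 1.72, 1.82, 1.93 and 1.19. Actg1, the gamma-actin gene, differed by 0.27 (adjusted p = 0.687, limma). All 5 estimates lay below the 3.14 of Vil1, the smallest of the 3 members that rose, a gap that was not tested.

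**Figure D3:**
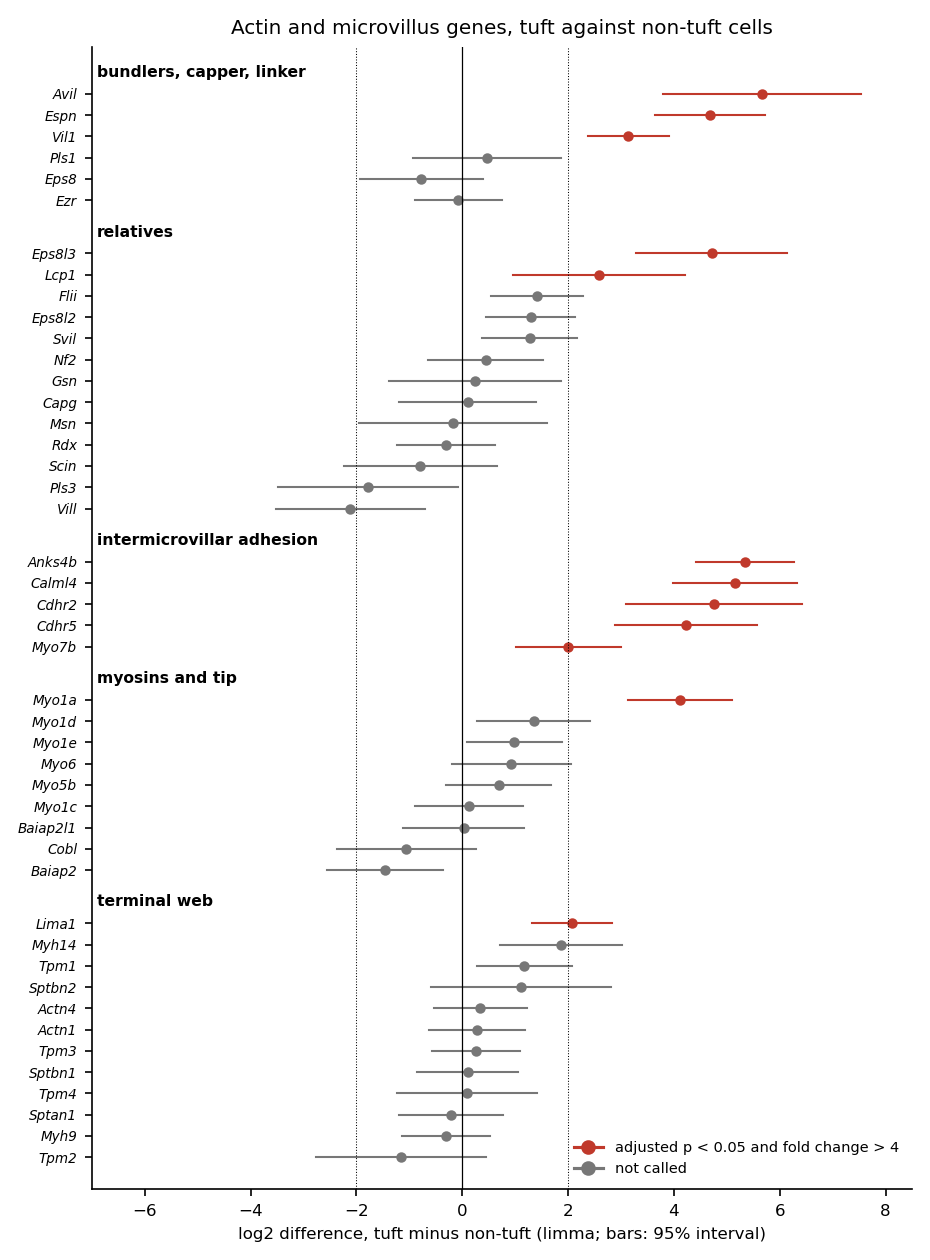
Log2 difference between tuft and non-tuft libraries for the 6 genes, their relatives and genes of the microvillus lists, with points for limma estimates and lines for their 95% intervals, not adjusted for the number of genes. Genes past both thresholds are colored, and the 5 adhesion complex genes lie between 2.01 and 5.34.

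The levels of the bundlers in the non-tuft libraries were set beside those of tuft markers. Relative to its mean in tuft libraries, on the linear RPKM scale, Avil reached 1.94, 7.83, 0, 0 and 8.66% in non-tuft libraries 1 to 5. The median of 13 tuft markers, with the sort antigen gene Siglecf among them, was 0.980, 5.15, 0, 0 and 9.33% in the same libraries. Avil stood in the same order over the libraries as this median, and was at the floor in libraries 3 and 4, in which no tuft marker passed 0.495%.

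Espn stood at 2.00, 6.57, 0.322, 2.17 and 4.01% of its tuft mean in non-tuft libraries 1 to 5, and Vil1 at 14.2, 9.87, 7.29, 14.8 and 9.34%. Vil1 was therefore at 7.29 and 14.8% in libraries 3 and 4, where each tuft marker was at most 0.495% of its tuft mean. Of these markers Dclk1 was still at 2.88 on the log2 scale in library 3, and at 0 in library 4. Against non-tuft libraries 3 and 4 alone, Avil, Espn and Vil1 were higher in tuft cells by 7.98, 5.35 and 3.18 (adjusted p = 0.000166, 0.00169 and 0.00279, limma). These libraries were chosen after the data were seen, because the tuft marker Trpm5 was at the floor in both. Avil was at the floor in both as well. Its larger difference, 7.98 against 5.66 with all libraries, was therefore set by that choice. The Vil1 difference moved by little.

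**Figure D4:**
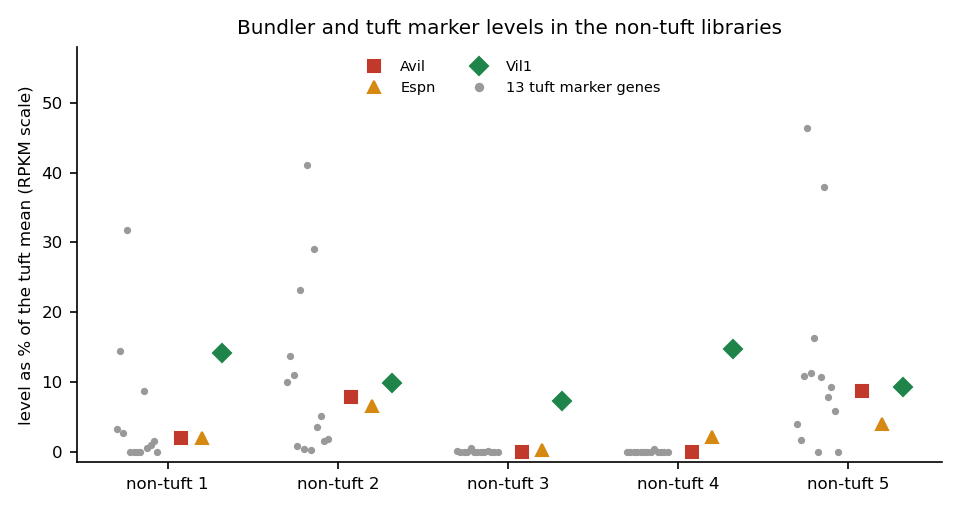
Level of Avil, Espn, Vil1 and 13 tuft markers in each of the 5 non-tuft libraries as a percent of the gene's mean in tuft libraries, on the linear RPKM scale. In libraries 3 and 4 the tuft markers lie at or near 0%, as does Avil, while Vil1 lies at 7.29 and 14.8%.

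All genes of the lists used here, tuft markers included, were left out of a search for similar patterns, so those could lie closer. Among the rest, the most alike by the root mean square difference of gene-centred log2 values over the 10 libraries were named per member. For Avil they were Spib, an ETS family transcription factor gene (0.51), and Alox5, the 5-lipoxygenase gene (0.55). For Espn they were Pstpip1 (0.52) and Matk (0.58), and for Vil1 they were Sct, the secretin gene (0.32), and Bmp2 (0.34). For the genes that did not pass they were Msto1 (0.35) and Dolpp1 (0.46) for Pls1, Capns1 (0.40) and Sema3f (0.48) for Eps8, and Trap1 (0.21) and Zfand6 (0.23) for Ezr.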

How the data were processed

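Gene expression was measured by Smart-Seq2 in 5 tuft and 5 non-tuft epithelial libraries, grouped by the sample labels. Reads of 50 bases from 1 end were mapped by the authors with HISAT2 (mm9). The authors then quantified RPKM with StringTie and Ballgown, removed genes of low variance, and deposited log2 values that were quantile normalized with preprocessCore. The constant of 1 was read from the floor of 0. The 3 columns that the authors deposited for their own comparison (a fold ratio, its p-value and the false discovery rate) were not used.

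Differences were fitted with limma 3.58.1 in R 4.3.3 (lmFit and eBayes, no covariates, Benjamini-Hochberg over 12160 genes). Single genes, gaps between genes and family sums (log2 of the summed linear values + 1) were compared by exact two-sided permutation over all assignments of the libraries to groups. The fit was tested on simulated data. Summaries and figures used Python 3.11.15, pandas 2.3.3, scipy 1.17.1 and matplotlib 3.10.9. Gene positions came from an NCBIM37 annotation and promoters from RefSeq.

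The members and all lists were chosen with earlier results of these data known. Named genes were the members, all relatives in their families, up to 4 called genes per other list, and Actb and Actg1. Pou2f3 and Dclk1 were named as tuft references, and Siglecf as the gene of the sort antigen. The 2 nearest patterns per member, among genes outside the lists, were also named. Other genes named (Trpm5 in choosing libraries, Ptprc, Tsfm, and the genes that passed the adjusted p alone) were chosen after their values were seen. The alternatives were the replicate number as a block, a constant of 0.1 or 10, a mean filter of 2, centring on 77 ribosomal protein genes, other eBayes settings, the floor set to 0, other fold thresholds and each library left out. Leaving out both libraries numbered 5 and using only non-tuft libraries 3 and 4, in which Trpm5 was at the floor, were added after the data were seen. A listed gene is not reported here by name.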

Additional observations from a re-analysis of the deposited data

Results flagged for a closer look

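In 59 groups of 5 libraries from the 30 genes with single values, 4 held a library whose gap to the nearest other was past Dixon's 95% critical value as a share of the group's range, and none of the 4 was in a member. For normally distributed values, chance gives about 1 in 20 such groups. This rate does not hold where values sit at the floor. Of the genes flagged, Myo7b and Scin each had 4 non-tuft libraries at the floor. In non-tuft library 4, Lcp1 was at 0.89 while the other 4 libraries lay at 4.18 to 4.92. Myo7b was at 2.02 in the same library, and at 0 to 0.17 elsewhere. Scin was at 3.80 in non-tuft library 1, against 0 to 0.17, and Rdx was at 6.19 there, against 4.41 to 4.88.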

How the results depend on the processing

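The 3 member calls held under all 19 alternatives that refitted the data. Avil lay between 3.93 and 7.98, Espn between 2.79 and 5.50 and Vil1 between 2.64 and 3.96. The other fold thresholds only relaxed the rule and could not lose a call. Genes called higher and lower numbered 525 and 485, but 162 and 116 with a constant of 10 and 1346 and 224 when centred on ribosomal protein genes. The 11 genes called higher in the other pathway lists became 5 with a constant of 10 and 25 with that centring. They became 21 with a fold over 2 or no fold threshold. With no fold threshold, 753 of all genes (6.19%) were called higher. The count called lower went from 0 to 1 with a mean of at least 2 and without non-tuft library 4 (Vill in both, range 0 to 1 with each library left out), and to 1 against non-tuft libraries 3 and 4 alone (a gene of the ezrin scaffolds and kinases).

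No member that missed the threshold kept its sign throughout. Ribosomal centring shifted all genes of a library by the same amount, and moved the median of all genes from 0.02 to 0.84. It turned Eps8 to 0.0518, Ezr to 0.75, Scin to 0.0298, Rdx to 0.51 and Msn to 0.65, all below that median. A constant of 10 turned Gsn to -0.0663 and Capg to -0.0294. Without both libraries numbered 5, Ezr was 0.12 and Msn 0.0026. Against non-tuft libraries 3 and 4 alone, Pls1 was -0.73, Capg -0.87 and Rdx 0.0937. With each library left out, Pls1 ranged from -0.0834 to 0.80, Ezr from -0.31 to 0.0875, Gsn from -0.19 to 1.00, Capg from -0.42 to 0.45, Msn from -0.69 to 0.33 and the plastin sum from 0.864 to 1.21. The cause of the changes with the other settings was not tested.

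Libraries of the same number correlated by 0.0789 to 0.239 in their deviations, with 3 of 5 pairs over 0.1, and 7 of 10 libraries correlated best with their own number, a hint from the data that numbers may be shared between the groups. Since not every pair was over 0.1 and no source used here says what the numbers mark, they were not taken as pairs, and the exact tests of gaps and family sums were unpaired. With the replicate number as a block, 518 and 491 genes were called and the same 3 members (adjusted p = 0.00520 for Avil, 0.00137 for Espn and 0.00170 for Vil1, limma). Depth is unknown, so low values could not be given a counting error.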
